A study of Homo sapiens
Mus musculus and Mus musculus and Homo sapiens with 3 samples.

Results

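Progenitors that expressed nuclear factor I genes (NFI-expressing) were set against progenitors with none (NFI-free) in mouse cells differentiating towards motor neurons. The cells were chosen by their own counts. A progenitor had at least 1 unique molecular identifier (UMI, a tag that marks 1 captured RNA molecule) of Sox2, a neural progenitor factor. It had 0 UMIs of Stmn2, a neuronal gene, and 0 of Col1a2, a mesenchymal gene. It was NFI-expressing with at least 2 UMIs of Nfia and Nfib together, and NFI-free with 0 of both. This gave 275 NFI-expressing cells, 58 in mouse replicate 1 and 217 in mouse replicate 2, and 1885 NFI-free cells, 974 and 911. A further 346 progenitors had 1 NFI UMI and stood on neither side. These were drawn from 2506 gated progenitors, 4664 cells in both mouse files and 9115 cells in the whole series.

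The mouse cells were C57BL/6 embryonic stem cells, differentiated in vitro towards motor neurons in suspended aggregates (embryoid bodies). Before differentiation all of them, on both sides, had received a lentivirus with a short barcode behind a GFP driven by the CAGGS promoter, and GFP+ cells were sorted before single-cell 3' RNA sequencing. Mouse replicate 1 was the mouse part of a library that also held human cells (line NCRM1), and mouse replicate 2 was a library of its own. Cells had been sampled every 24 h in mouse, and no day was assigned to single cells here, so the day of sampling and the NFI class cannot be told apart. The word late in what follows names a gene list, not a measured time. No label states whether these 2 libraries stem from independent cultures, so how far the p-values hold for other cultures is not known. For each gene, the p-value rests on how the difference between sides varied between the libraries, and on a spread shared across genes.

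NFI factors are DNA-binding proteins that switch on in the neural tube when progenitors move from making neurons to making glia, and they act together with Sox9 in that step. Earlier progenitors instead carry the RNA-binding proteins Lin28a and Lin28b, which block maturation of let-7 microRNAs. Let-7 microRNAs in turn lower Lin28 and other early transcripts.

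The 2 libraries differed in how many progenitors passed the NFI threshold, as the plot of NFI UMIs per cell shows. NFI-expressing cells were 4.92% of gated progenitors in replicate 1 (exact 95% Clopper-Pearson interval 3.75 to 6.31) and 16.4% in replicate 2 (14.4 to 18.5). With every cell thinned to 7000 UMIs before the gate, the shares were 1.21% (10 of 824 cells) and 7.74% (67 of 866 cells). Intervals cover counting error only. No NFI-expressing cell had more than 17 NFI UMIs. NFI-expressing cells were shallower than NFI-free cells in both libraries, with medians of 18152 against 22607 UMIs in replicate 1 and 24737 against 36991 in replicate 2. The gene lists were also counted with gate and sums on cells thinned to 7000 UMIs, which left 10 and 67 NFI-expressing cells and fewer counts per gene. Most lists had fewer calls there, and the counts are given with each list as those of thinned cells.

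**Figure D1:**
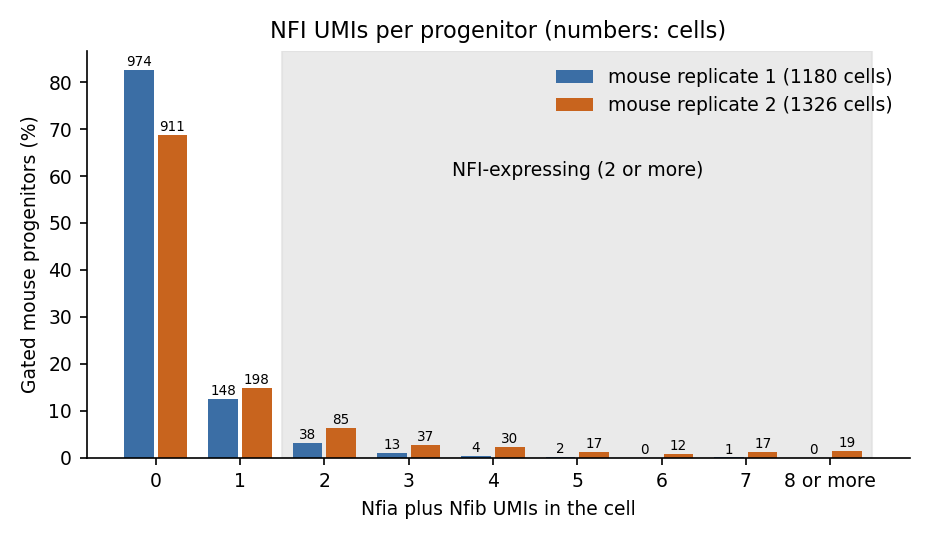
Share of gated mouse progenitors (vertical axis, percent) by the number of Nfia plus Nfib UMIs in the cell (horizontal axis), for replicate 1 (blue) and replicate 2 (orange), with the number of cells above each bar. The shaded range, 2 or more UMIs, holds 58 and 217 cells, and only replicate 2 holds cells with 8 or more (19).

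As set by the rule, the summed counts of Nfia, scaled to a total of 1000000 (CPM), were 58.6 and 56.0 in the NFI-expressing cells of replicates 1 and 2, and those of Nfib 79.0 and 93.4, against 0 in NFI-free cells. Both genes had a UMI in 25 of the 58 cells of replicate 1 and in 113 of the 217 cells of replicate 2. Cells gated on 1 gene alone were used to read the other. Nfib stood at 21.8 and 65.4 CPM in cells with at least 1 Nfia UMI, against 5.92 and 10.1 CPM in cells with none. It was higher in both libraries (edgeR, log2 fold change 2.27 ± 0.20 SE, adjusted p = 3.36e-26). Nfia stood at 12.5 and 26.1 CPM in cells with at least 1 Nfib UMI, against 3.43 and 2.48 CPM in cells with none (log2 fold change 2.74 ± 0.28 SE, adjusted p = 1.22e-04). Without the library as a block neither gene passed. The third family member measured, Nfix, had 1 UMI in the NFI-expressing cells of replicate 1 and 21 UMIs in those of replicate 2, or 0.930 and 3.63 CPM, against 0.497 and 0.996 CPM in NFI-free cells, and its difference did not pass (adjusted p = 0.081).

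Among 11391 genes tested, 679 were higher and 662 lower in NFI-expressing progenitors at an adjusted p below 0.05 (edgeR quasi-likelihood test with the library as a block). That is 11.8% of the genes, 5.96% higher and 5.81% lower. These shares are the background for every gene list below. Of the 1341 genes called, 1282 (95.6%) moved the same way in both libraries, which the fit across both libraries favours. Of all 11391 genes tested, 7260 (63.7%) did so. Scaling to the total count alone shifted the median log2 fold change of all genes from -0.01 to 0.12 and gave 1140 higher and 349 lower calls. DESeq2 called 321 genes, 186 higher and 135 lower, and all 321 were among edgeR's calls. Genes named below without a DESeq2 value were not all called by it. Those it did not call include Gli3, Epcam, Top2a, Cenpf and Fgf15 (DESeq2 adjusted p = 0.26, 0.12, 0.077, 0.12 and 0.066). Without the library block no gene passed in edgeR, while 389 had an unadjusted p below 0.05. In a fit that also held the cells with 1 NFI UMI (1846 calls), leaving out the NFI-expressing cells of replicate 1 gave 3161 calls. Leaving out those of replicate 2 gave 565, and leaving out the NFI-free cells of replicate 2 gave 659. Counts without 1 sum, where given below for a list, come from that fit.

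Markers of other cell types were read on both sides before the gene groups. Of 15 neuronal genes other than Stmn2, 6 were higher and 1 lower in NFI-expressing progenitors. Their summed level was 367 against 352 CPM in replicate 1 and 465 against 169 CPM in replicate 2, so the libraries differed. Without the NFI-expressing cells of replicate 2 no neuronal gene was called in either direction, without the NFI-free cells of replicate 2 there were 3 higher and 3 lower, and thinned cells gave 1 of 13 higher. Elavl3, an RNA-binding protein of neurons, stood at 97.6 and 91.8 CPM against 70.2 and 24.1 CPM. Stmn3, a neuronal microtubule regulator, stood at 43.7 and 98.7 CPM in NFI-expressing against 26.0 and 19.2 CPM in NFI-free cells (log2 fold change 1.62 ± 0.21 SE, adjusted p = 1.24e-07). Summed epithelial or endodermal markers were lower, at 1.86 against 7.14 and 19.5 against 83.0 CPM, with 3 of 6 tested genes lower, among them Krt18 and Epcam (0 lower without the NFI-expressing cells of replicate 2, and 6 without either side of replicate 1). Pluripotency markers summed to 3.72 against 17.2 and 15.2 against 42.5 CPM, and Dppa5a was the gene called lower of 2 tested. Mesenchymal or neural crest markers summed to 4.65 against 8.13 and 16.3 against 13.6 CPM. Mitochondrial UMIs made up 2.07% against 2.26% in replicate 1 and 1.32% against 1.23% in replicate 2. Their part in the results below was not tested.

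Fabp7 and Ttyh1, both radial glial, had the largest log2 fold changes among genes called higher with at least 20 CPM in the NFI-expressing cells of both libraries. Fabp7, a brain fatty acid binding protein and classical radial glia marker, stood at 372 and 1143 CPM in the NFI-expressing cells of replicates 1 and 2, against 43.2 and 39.5 CPM in the NFI-free cells. The groups did not overlap, and the excess was 8.61-fold in replicate 1 and 28.9-fold in replicate 2 (log2 fold change 3.92 ± 0.19 SE, adjusted p = 4.67e-20). Sox9, the factor that works with NFI in the onset of gliogenesis, stood at 136 and 119 CPM against 28.3 and 14.1 CPM (log2 fold change 2.57 ± 0.16 SE, adjusted p = 2.47e-16). Both were also read as shares of cells with a UMI after thinning each cell to 7000 UMIs, beside neurons of the same libraries (at least 5 Stmn2 UMIs and 0 Sox2). Fabp7 was found in 44.8% and 55.3% of NFI-expressing cells, 14.9% and 15.5% of NFI-free cells and 8.81% and 11.0% of neurons. For Sox9 these shares were 48.3% and 54.4%, 16.4% and 9.33%, and 23.3% and 16.7%. NFI-expressing cells lay above neurons for both genes. NFI-free cells lay above neurons for Fabp7 and below them for Sox9. How much of these shares is background was not tested. Either Fabp7 or Sox9 was found in 65.5% and 70.5% of NFI-expressing cells and in 26.4% and 22.7% of NFI-free cells. Fabp7 and Sox9, the markers given for these cells beside Nfia and Nfib, were thus higher in both libraries.

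Of 11 late temporal genes tested, 7 were higher and none lower, against a background of 5.96% higher. The 7 were Sox9, Npas3, Zbtb20, Nr2f1, Tcf4, Npy and Hopx, and the median log2 fold change of the 11 was 1.59, against -0.01 over all genes. Npas3, a neural transcription factor of the bHLH-PAS family, stood at 45.6 and 40.8 CPM against 6.91 and 3.99 CPM (log2 fold change 2.95 ± 0.22 SE, adjusted p = 1.06e-13). Zbtb20, a zinc finger factor of late progenitors and astrocytes, stood at 30.7 and 30.1 CPM against 11.2 and 5.45 CPM (log2 fold change 1.93 ± 0.23 SE, adjusted p = 2.80e-08). For both genes the NFI-expressing levels of the libraries were close to each other, and all lay above both NFI-free levels. Zbtb20 was also read as shares of cells with a UMI, thinned in the same way as for Fabp7 and Sox9. These were 19.0% and 22.6% of NFI-expressing cells, 7.29% and 3.95% of NFI-free cells and 30.2% and 28.8% of neurons. The Zbtb20 shares of both sides lay below those of neurons. How much of each share is background was not tested. Hopx, a homeodomain-only protein of late radial glia, was seen in replicate 2 only. It had 0 UMIs on both sides of replicate 1, where 3 UMIs of the NFI-expressing sum would be 2.79 CPM, and stood at 22.3 against 1.06 CPM in replicate 2. It was not called by DESeq2 (adjusted p = 0.87). Leaving out the NFI-expressing cells of replicate 2 gave 5 late temporal genes higher and none lower, and thinned cells gave 3 of 8 higher and none lower.

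Of 23 radial glia genes tested, 11 were higher and 3 lower. Ttyh1, a membrane protein of radial glia, stood at 34.4 and 45.3 CPM against 4.88 and 1.77 CPM (log2 fold change 3.72 ± 0.28 SE, adjusted p = 8.43e-14). Ptprz1, a receptor phosphatase of radial glia and oligodendrocyte precursors, stood at 19.5 and 121 CPM against 4.38 and 7.35 CPM (log2 fold change 3.34 ± 0.25 SE, adjusted p = 1.39e-13). Its NFI-expressing level in replicate 2 was several times that in replicate 1. Slc1a3, the glutamate transporter GLAST, stood at 43.7 and 86.3 CPM against 19.8 and 32.5 CPM (log2 fold change 1.18 ± 0.17 SE, adjusted p = 1.18e-06). The 3 lower members were Ptn, Rcn1 and Pax6. Ptn, which encodes the secreted growth factor pleiotrophin, stood at 9.30 and 57.6 CPM against 33.9 and 185 CPM (log2 fold change -1.85 ± 0.16 SE, adjusted p = 4.74e-12). The radial glia list therefore did not move as 1 block. It had 17 higher and 4 lower without the NFI-expressing cells of replicate 1, and 9 higher and 3 lower in thinned cells.

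**Figure D2:**
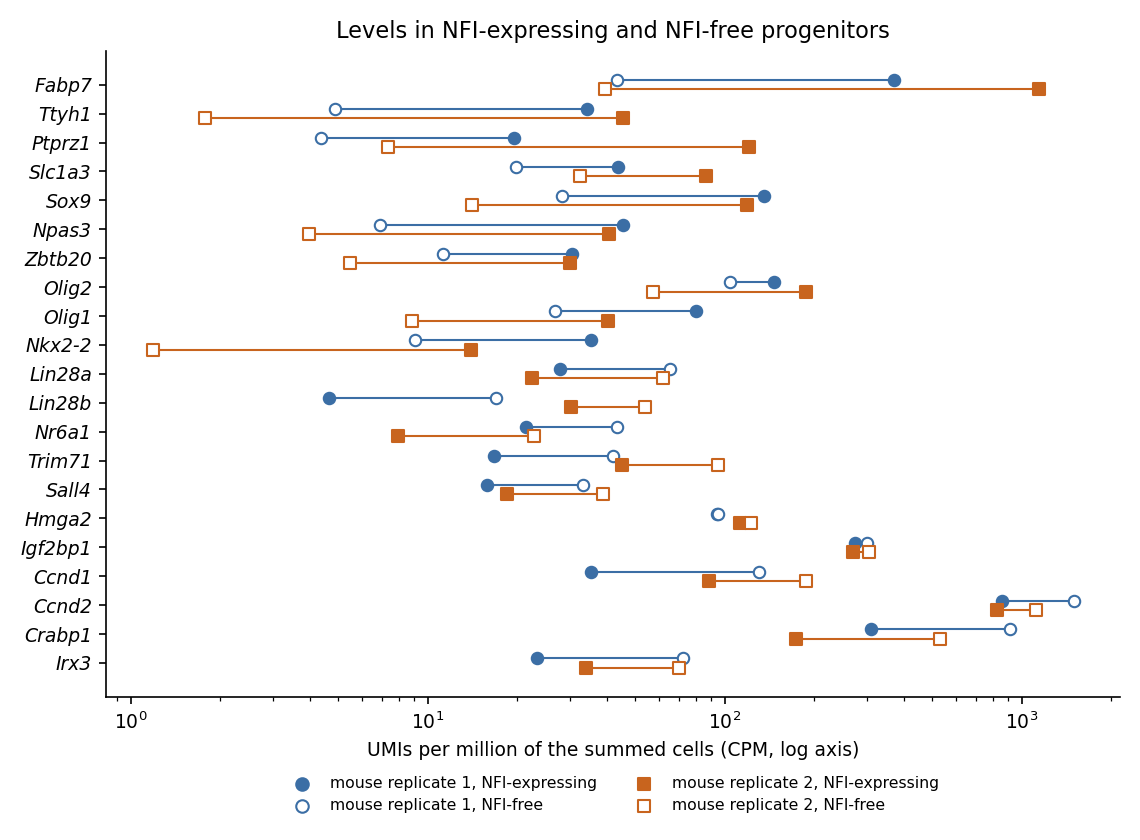
Level in CPM (horizontal log axis) of 21 genes in the summed NFI-expressing cells (filled) and NFI-free cells (open) of replicate 1 (blue circles) and replicate 2 (orange squares), each pair joined by a line. Radial glial, late and oligodendrocyte lineage genes at the top have filled symbols to the right in both libraries, the early genes from Lin28a to Sall4 have them to the left, and the pairs of Hmga2 and Igf2bp1 lie close together.

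Oligodendrocyte precursor genes were higher in 8 of 13 tested and lower in 1, Vcan. That became 4 higher and none lower without the NFI-expressing cells of replicate 2, and 6 of 11 higher and none lower in thinned cells. Olig2, the factor of motor neuron and oligodendrocyte progenitors, stood at 147 and 187 CPM against 104 and 57.1 CPM (log2 fold change 1.05 ± 0.15 SE, adjusted p = 1.52e-06). Olig1, its neighbour in the genome and a factor of the oligodendrocyte lineage, stood at 79.97 and 40.5 CPM against 26.8 and 8.84 CPM (log2 fold change 1.77 ± 0.19 SE, adjusted p = 2.30e-09). Nkx2-2, a ventral factor that oligodendrocyte precursors also use, stood at 35.3 and 14.0 CPM against 9.08 and 1.18 CPM (log2 fold change 2.58 ± 0.30 SE, adjusted p = 1.07e-08). At 7000 UMIs per cell, Olig2 and Nkx2-2 were found together in 8.62% and 5.07% of NFI-expressing cells, in 1.44% and 0.439% of NFI-free cells and in 0% of neurons. Ncan, the proteoglycan neurocan, stood at 19.5 and 17.1 CPM against 3.43 and 1.46 CPM (log2 fold change 2.97 ± 0.33 SE, adjusted p = 4.55e-09). Sox10, which marks committed oligodendrocyte precursors, had 0 UMIs in the NFI-expressing cells of replicate 1 and 21 UMIs (3.63 CPM) in those of replicate 2, with 0 in the NFI-free cells of that library. Pdgfra, the receptor that defines these precursors, had 0 UMIs in the NFI-expressing cells of both libraries.

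Astrocyte genes were higher in 8 and lower in 4 of 17 tested. Without the NFI-expressing cells of replicate 2 they were higher in 4 and lower in 2, without the NFI-free cells of replicate 2 higher in 4 and lower in 3, and in thinned cells higher in 6 and lower in 1 of 14. Fgfr3, a receptor of ventricular zone progenitors and astrocytes, stood at 79.97 and 43.9 CPM against 32.3 and 10.2 CPM (log2 fold change 1.60 ± 0.19 SE, adjusted p = 1.76e-08). Sparcl1, the astrocyte protein hevin, stood at 12.1 and 16.9 CPM against 2.12 and 2.49 CPM (log2 fold change 2.54 ± 0.34 SE, adjusted p = 2.40e-07). The members that were lower included both metallothioneins, Mt1 (62.3 and 262 against 150 and 483 CPM) and Mt2 (17.7 and 69.5 against 57.6 and 129 CPM), together with Apoe and Gja1. Genes of mature astrocytes were at or near 0 on both sides: Gfap had 0 UMIs in NFI-expressing cells of both libraries, and Aldh1l1 and Aqp4 stood at 0.346 and 0.173 CPM in replicate 2 and at 0 in replicate 1.

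Of 14 genes of early progenitors tested, 8 were lower, none were higher and 6 did not pass, against a background of 5.81% lower, and the median log2 fold change of the 14 was -0.98. Lin28a stood at 27.9 and 22.5 CPM in NFI-expressing cells against 65.5 and 62.0 CPM in NFI-free cells, so the groups did not overlap (log2 fold change -1.52 ± 0.17 SE, adjusted p = 6.20e-09). Its share of cells with a UMI at 7000 UMIs was 12.1% and 9.22% against 26.8% and 29.0%, and it was 20.1% and 10.8% in neurons. The NFI-expressing shares lay below those of neurons, and how much of them is background was not tested. Lin28b stood at 4.65 and 30.4 CPM against 17.0 and 53.7 CPM, a difference within each library that was smaller than the gap between the libraries (log2 fold change -1.12 ± 0.22 SE, adjusted p = 2.73e-04). Nr6a1, an orphan nuclear receptor of early trunk development, stood at 21.4 and 7.96 CPM against 43.3 and 22.8 CPM (log2 fold change -1.45 ± 0.23 SE, adjusted p = 6.84e-06). Trim71, a ubiquitin ligase and RNA-binding protein of early embryos, stood at 16.7 and 45.0 CPM against 42.1 and 94.5 CPM (log2 fold change -1.27 ± 0.17 SE, adjusted p = 1.76e-07). The zinc finger factor Sall4 (15.8 and 18.5 against 33.4 and 38.7 CPM), Fst, Hmga1 and Dnmt3b completed the 8. Fst had 0 UMIs in the NFI-expressing cells of replicate 1.

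The early list was not lowered as a whole. Hmga2, a chromatin protein of young stem cells, stood at 93.9 and 113 CPM against 94.7 and 123 CPM (log2 fold change -0.21 ± 0.12 SE, adjusted p = 0.30). Igf2bp1, an RNA-binding protein of the same group, stood at 274 and 270 CPM against 302 and 307 CPM (log2 fold change -0.29 ± 0.10 SE, adjusted p = 0.056). With relative log expression scaling 10 of the 14 were lower. Leaving out 1 sum at a time gave between 7 and 11 lower genes and none higher, and thinned cells gave 3 of 13 lower and none higher.

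Many of these early transcripts are known let-7 targets, and the list was drawn in part from that knowledge, so the sites below describe it and are no finding about it. The letters CTACCTC, which pair with the let-7 seed (bases 2 to 8), were searched in the longest annotated 3' UTR of each gene, on the transcript strand, in GENCODE M21 (GRCm38). The first match in 5 genes is shown with 8 bases on each side, written 5' to 3' with the seed match in capitals, to set 3 genes that were lower beside 2 that did not pass.
Lin28a: ctgttgaaCTACCTCatttttgc
Lin28b: cgggaagtCTACCTCatgcaagc
Trim71: cctaagtcCTACCTCagcttaaa
Hmga2: ttcaatttCTACCTCagcatcag
Igf2bp1: gaagtaaaCTACCTCaaggtgtg

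Lin28a (chr4:134003330-134018841, minus strand) held 2 matches in its UTR of 2778 bases. Lin28b and Trim71 held 4 each. Hmga2 and Igf2bp1, which did not pass, also held 4 each. In all, 11 of the 14 early genes held at least 1 match, and Dnmt3b and Fst, which were lower, held none. Over the transcriptome the match was in 10.6% of genes called lower, 10.9% of genes called higher and 10.7% of all tested genes with a UTR. UTR length differed between these sets, with medians of 826, 1666 and 1235 bases, and per 1000 bases of UTR the matches numbered 0.105, 0.0555 and 0.0721. The share of genes with a match was thus alike in the sets, while matches per base were densest in genes called lower and sparsest in genes called higher. A match is a run of letters and not a measured site. The sites were looked up after the values had been seen.

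Of 45 S phase genes tested, 18 were lower and none higher, with a median log2 fold change of -0.31. Hells, a helicase of replicating chromatin, stood at 96.7 and 139 CPM against 168 and 206 CPM (log2 fold change -0.79 ± 0.12 SE, adjusted p = 2.75e-06). Ung, a uracil DNA glycosylase, stood at 38.1 and 45.8 CPM against 54.7 and 86.7 CPM (log2 fold change -0.92 ± 0.16 SE, adjusted p = 3.26e-05). Mcm5, of the replicative helicase, stood at 87.4 and 88.9 CPM against 132 and 129 CPM, and Uhrf1, which maintains DNA methylation at replication, at 102 and 97.9 CPM against 138 and 141 CPM. All 4 were lower in both libraries by less than 1 on the log2 scale. Without scaling beyond the total count 6 S phase genes were lower and none higher, and with gate and sums on cells thinned to 7000 UMIs none passed in either direction (median -0.47). Leaving out 1 sum at a time left none higher, with 28 lower without the NFI-expressing cells of replicate 1, 7 without those of replicate 2 and 8 without the NFI-free cells of replicate 2.

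Of 53 G2/M genes, 4 were higher and none lower, a share near the 5.96% of all genes, and with the gate on thinned cells the direction turned to 4 lower and none higher. Leaving out the NFI-expressing cells of replicate 2 gave 2 higher and 4 lower, and leaving out those of replicate 1 gave 20 higher and 3 lower. Without the NFI-free cells the counts were 11 higher and 1 lower for replicate 1 and 2 higher and none lower for replicate 2. With no scaling beyond the total count 16 were higher and none lower. The G2/M list therefore had no steady direction. The 4 were Ube2c (505 and 836 against 326 and 477 CPM), Nusap1 (106 and 133 against 65.9 and 70.1 CPM), Top2a (267 and 397 against 211 and 215 CPM) and Cenpf (193 and 431 against 156 and 238 CPM). Mki67, the proliferation antigen, stood at 58.6 and 168 CPM against 67.0 and 88.9 CPM, lower in replicate 1 and higher in replicate 2, and did not pass (adjusted p = 0.093). At 7000 UMIs, at least 1 UMI of Mki67, Top2a or Cdk1 was found in 69.0% and 77.4% of NFI-expressing cells, 67.2% and 84.9% of NFI-free cells and 7.55% and 13.0% of neurons. Both sides thus held mostly cells with proliferation transcripts.

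Of 22 cyclins, their kinases, inhibitors and regulators, 9 were lower and 3 higher, with a median log2 fold change of -0.33. With no scaling beyond the total count the split was 5 lower and 5 higher, and thinned cells gave 5 of 21 lower and none higher. The counts were 5 lower and none higher without the NFI-expressing cells of replicate 2, 5 lower and 1 higher without the NFI-free cells of replicate 2, and 11 lower and 5 higher without the NFI-expressing cells of replicate 1. Ccnd1, the D-type cyclin of G1, stood at 35.3 and 88.7 CPM against 130 and 187 CPM (log2 fold change -1.45 ± 0.14 SE, adjusted p = 1.00e-10). It had a UMI in 12.1% and 19.8% of NFI-expressing and 33.5% and 58.8% of NFI-free cells at 7000 UMIs, and in 12.6% and 5.72% of neurons. The NFI-expressing share of replicate 1 was at the level of neurons, and that of replicate 2 lay above it. Ccnd2, another D-type cyclin, stood at 856 and 824 CPM against 1495 and 1117 CPM (log2 fold change -0.75 ± 0.10 SE, adjusted p = 4.28e-07). The inhibitor Cdkn1b (p27) was higher, at 22.3 and 45.1 CPM against 12.8 and 21.6 CPM (log2 fold change 0.85 ± 0.21 SE, adjusted p = 0.00372). Btg1, an antiproliferative gene, was higher as well, at 221 and 187 CPM against 175 and 94.2 CPM. Cdkn1a (p21), in contrast, was lower, at 13.9 and 53.6 CPM against 26.7 and 88.7 CPM. Cdkn1c (p57), which marks cells leaving the cycle, stood at 93.9 and 137 CPM against 147 and 132 CPM and did not pass (adjusted p = 0.060). DESeq2 did not call Cdkn1b (adjusted p = 0.17) or Btg1 (adjusted p = 0.081).

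**Figure D3:**
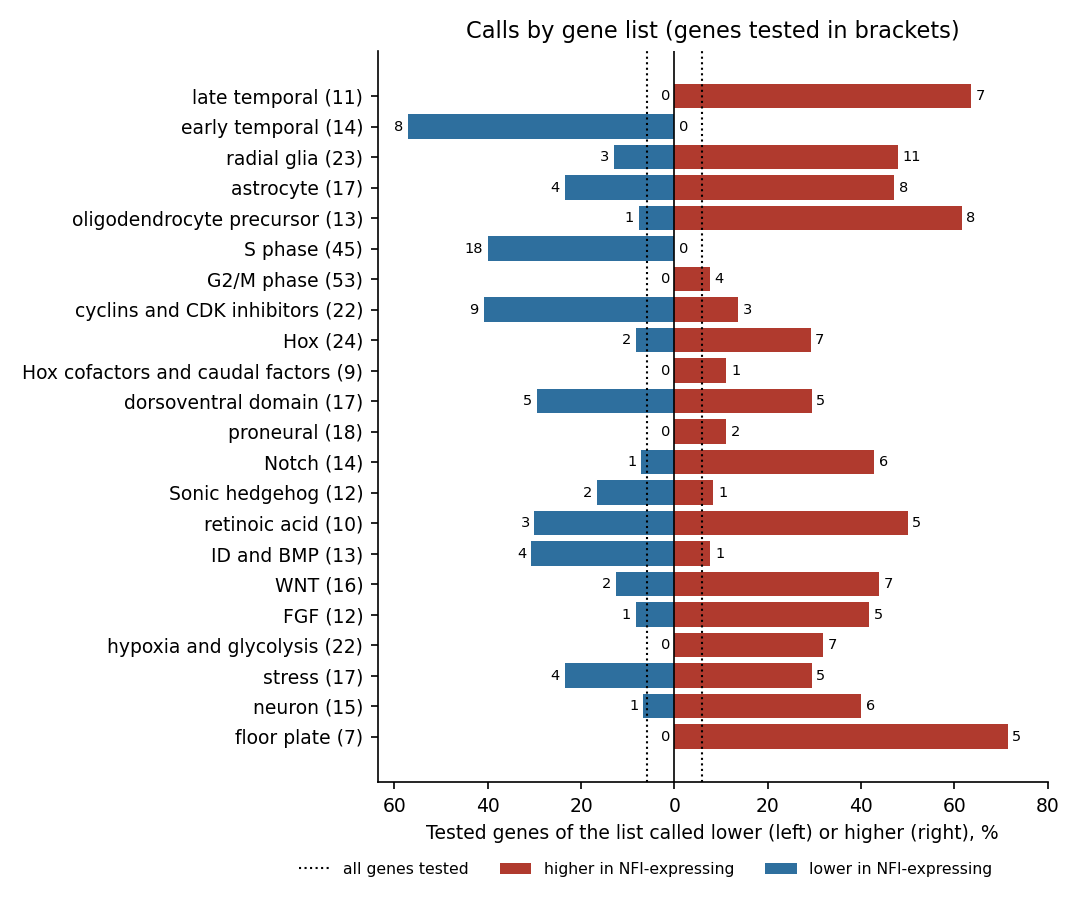
Share of the tested genes of each list (horizontal axis, percent) called lower (blue, to the left) or higher (red, to the right) in NFI-expressing progenitors, with the number of genes beside each bar and the shares of all genes tested as dotted lines at 5.81% and 5.96%. Late temporal genes and oligodendrocyte precursor genes extend to the right, early temporal and S phase genes to the left only, and the G2/M bar ends near the dotted line.

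Hox genes set position along the neural tube, and those with higher numbers are expressed further back. Of 24 tested, 7 were higher and 2 lower, with a median log2 fold change of 0.29. Hoxb6 stood at 152 and 135 CPM in NFI-expressing cells against 50.5 and 51.8 CPM in NFI-free cells (log2 fold change 1.34 ± 0.13 SE, adjusted p = 9.64e-11). Hoxb8 stood at 169 and 229 CPM against 87.6 and 92.7 CPM (log2 fold change 1.02 ± 0.12 SE, adjusted p = 1.07e-08). Hoxa5 stood at 171 and 223 CPM against 85.8 and 109 CPM (log2 fold change 0.88 ± 0.11 SE, adjusted p = 1.30e-07). For these 3 genes both NFI-expressing levels lay above both NFI-free levels. With 2 values on each side this can occur by chance, and its share over all genes is not given here. Hoxb5 (206 and 100 against 131 and 56.5 CPM) and Hoxb3 (71.6 and 110 against 51.6 and 53.5 CPM) were higher within each library, as was Hoxd3, and DESeq2 called neither Hoxb3 (adjusted p = 0.081) nor Hoxd3 (adjusted p = 0.17). Without the NFI-expressing cells of replicate 2, 4 Hox genes were higher and none lower, without those of replicate 1 there were 13 higher and 3 lower, and thinned cells gave 2 of 21 higher and none lower. Hoxb9 was called on replicate 2 alone, with 0.930 against 4.11 CPM in replicate 1 and 71.4 against 28.8 CPM in replicate 2.

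Hoxb1, called lower, stood at 3.72 against 3.61 CPM in replicate 1 and at 0.865 against 8.53 CPM in replicate 2, so its call rested on replicate 2. Split after the values had been seen, paralog groups 5 to 9 had 5 higher and 0 lower of 12 tested genes, and groups 1 to 4 had 2 higher and 2 lower of 12. Their median log2 fold changes were 0.57 and -0.00, and the difference between the sets was not tested. The other 8 Hox genes at 20 CPM or more on 1 side of both libraries did not pass, with log2 fold changes from -0.42 to 0.52 and a lowest adjusted p of 0.099. Hoxb5os, an RNA transcribed opposite to Hoxb genes, stood at 27.9 and 214 CPM against 8.31 and 34.5 CPM (log2 fold change 2.26 ± 0.17 SE, adjusted p = 1.18e-13). Whether the counts kept strands apart is not given in the sources used here, so its reads may include those of the genes it overlaps. Hoxd4 had 179 and 200 CPM on the sides of replicate 1 but 0.346 and 0.280 CPM in replicate 2, which had been counted on another annotation.

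**Figure D4:**
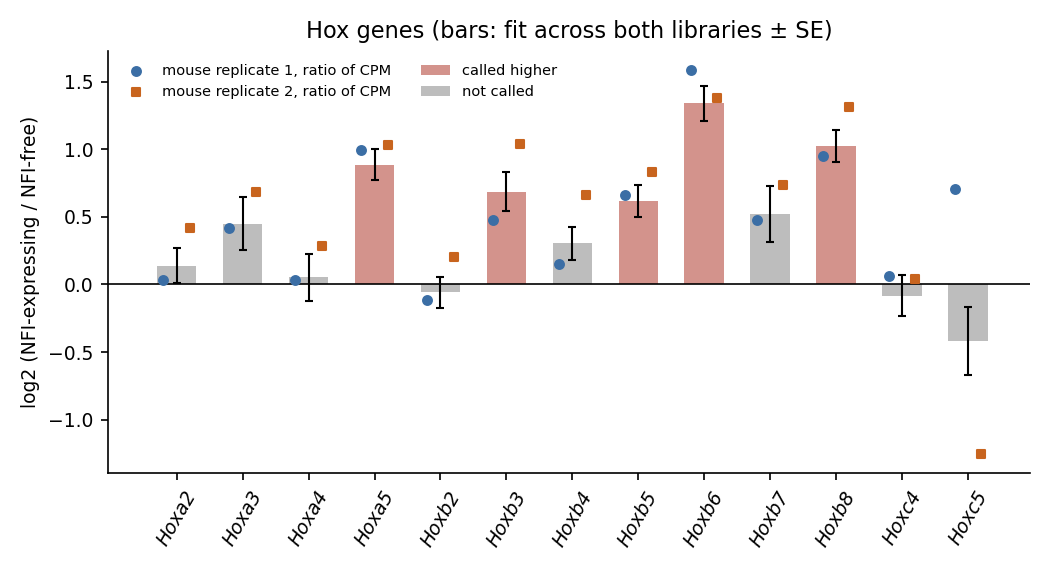
Difference between NFI-expressing and NFI-free progenitors (vertical axis, log2) for 13 Hox genes with 20 CPM or more on 1 side of both libraries, as the fitted value (bars, with SE) and as the CPM ratio in replicate 1 (blue circles) and replicate 2 (orange squares). Hoxa5, Hoxb3, Hoxb5, Hoxb6 and Hoxb8 are called higher, and the points of the libraries lie on the same side of 0 for each of them. Fitted values use trimmed-mean scaling and lie slightly below the CPM ratios.

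Among the factors that divide the neural tube into domains from dorsal to ventral, 5 were higher and 5 lower of 17 tested. Beside Olig2 and Nkx2-2, the higher side included Nkx6-1 and, at a low level, Shh. Shh had 0 UMIs in the NFI-expressing cells of replicate 1, against 0.994 CPM in the NFI-free cells. In replicate 2 Shh stood at 5.19 against 0.654 CPM, so its call rested on replicate 2. At 7000 UMIs, Nkx6-1 was found in 48.3% of NFI-expressing and 46.7% of NFI-free cells of replicate 1. In replicate 2 these shares were 58.5% and 22.9%. On the lower side were Irx3, which bounds the motor neuron domain dorsally, Dbx1, of the interneuron domains, Msx1, Nkx6-2 and Pax6. Msx1 stood at 1.86 against 2.39 CPM in replicate 1 and 6.23 against 35.7 CPM in replicate 2, so its call rested on replicate 2. Irx3 stood at 23.2 and 34.1 CPM against 72.6 and 70.0 CPM (log2 fold change -1.36 ± 0.17 SE, adjusted p = 4.27e-08). Dbx1 had 0 UMIs in the NFI-expressing cells of replicate 1 and stood at 9.68 CPM in replicate 2, against 21.5 and 31.9 CPM in NFI-free cells (log2 fold change -2.19 ± 0.29 SE, adjusted p = 2.78e-07), and DESeq2 did not call it (adjusted p = 0.48). Pax6, of intermediate domains, stood at 68.8 and 141 CPM against 214 and 182 CPM (log2 fold change -0.97 ± 0.15 SE, adjusted p = 4.73e-06). It was found in 20.7% and 42.9% of NFI-expressing cells, 58.5% and 56.5% of NFI-free cells and 22.0% and 11.9% of neurons at 7000 UMIs, so the NFI-expressing share of replicate 1 was at the level of neurons. Without the NFI-expressing cells of replicate 2 the domain counts were 2 higher and 4 lower, without the NFI-free cells of replicate 2 they were 3 and 5, and in thinned cells 2 and 3 of 13.

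The comparison was repeated inside the Olig2 domain, on cells with at least 1 Olig2 UMI (44 and 149 NFI-expressing, 554 and 284 NFI-free cells). There 565 genes were higher and 541 lower of 10458 tested. Fabp7 stood at 204 and 904 CPM against 39.8 and 76.7 CPM (log2 fold change 2.96 ± 0.12 SE), and Sox9 at 129 and 147 CPM against 34.6 and 19.7 CPM (2.32 ± 0.14 SE). Lin28a stood at 29.8 and 13.4 CPM against 61.9 and 48.3 CPM (log2 fold change -1.67 ± 0.20 SE), and Ccnd1 at 37.0 and 35.3 CPM against 92.3 and 160 CPM (-2.07 ± 0.15 SE). The counts for early genes (8 of 14 lower) equalled those over all progenitors, and 23 of 45 S phase genes were lower with none higher. In cells with no Olig2 and no Nkx2-2 UMI, only 7 NFI-expressing cells of replicate 1 remained beside 58 of replicate 2. There Fabp7, Sox9, Ttyh1, Ptprz1 and Npas3 had log2 fold changes of 5.04, 2.26, 3.90, 2.35 and 2.81 (SE from 0.26 to 0.54). Crabp1 had -1.12 ± 0.19 SE, whereas Lin28a (adjusted p = 0.17), Ccnd1 (adjusted p = 0.49) and Hoxb6 (adjusted p = 0.35) did not pass.

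Proneural genes, which drive progenitors towards neurons, differed in direction between the libraries. Their summed level was 539 against 888 CPM in replicate 1 and 743 against 485 CPM in replicate 2, with median log2 ratios of -0.87 and 0.59. Of 18 tested in the fit across both libraries, 2 were higher and none lower. Leaving out the NFI-free cells of replicate 2 gave 9 lower and none higher, and leaving out the NFI-expressing cells of replicate 2 gave 4 lower and none higher. Leaving out the NFI-expressing cells of replicate 1 gave 6 higher and none lower, and leaving out the NFI-free cells of replicate 1 gave 4 higher and none lower. Neurog2, a proneural factor of motor neuron progenitors, stood at 67.9 against 66.2 CPM in replicate 1 and 73.7 against 37.2 CPM in replicate 2, so its call (log2 fold change 0.47 ± 0.16 SE, adjusted p = 0.0496) rested on replicate 2. Elavl4, an RNA-binding protein of new neurons, stood at 60.4 and 28.4 CPM against 50.7 and 13.0 CPM. DESeq2 called neither gene (adjusted p = 0.61 for Neurog2 and 0.42 for Elavl4). Within cells with an Olig2 UMI the counts were 6 lower and none higher of 17. The Notch ligands Dll1 (15.5 and 39.5 against 37.97 and 51.96 CPM) and Dll3 (7.16 and 25.6 against 40.6 and 38.9 CPM) were lower there, with adjusted p = 0.00153 and 2.57e-06. Gadd45g (66.8 and 123 against 155 and 142 CPM) and Neurog1 (20.3 and 12.9 against 40.7 and 19.1 CPM) were lower as well (adjusted p = 3.55e-06 and 0.00401). Neurog2 did not pass in these cells (log2 fold change 0.15 ± 0.14 SE, adjusted p = 0.56). Whether the domain changes the difference was not tested.

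Notch pathway genes were higher in 6 of 14 tested and lower in 1, Jag1. The count was 9 higher without the NFI-expressing cells of replicate 1, 4 without either side of replicate 2, and 2 of 12 in thinned cells. Nrarp, a feedback target of Notch, stood at 136 and 129 CPM against 61.8 and 42.5 CPM (log2 fold change 1.27 ± 0.13 SE, adjusted p = 1.30e-09). The receptor Notch1 stood at 103 and 115 CPM against 52.2 and 41.0 CPM, and the target Hey1 at 51.1 and 46.3 CPM against 19.2 and 12.9 CPM. All 3 had like levels in both libraries on the NFI-expressing side. Hes5, the main Notch target of neural progenitors, differed in direction between the libraries, at 132 against 166 CPM in replicate 1 and 626 against 289 CPM in replicate 2, and did not pass (adjusted p = 0.088).

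Retinoic acid genes held members on both sides, 5 of 10 higher and 3 lower (2 and 2 without the NFI-expressing cells of replicate 2, and 3 and 2 of 8 in thinned cells). Crabp1, a cytoplasmic retinoic acid binding protein, stood at 312 and 174 CPM against 914 and 529 CPM (log2 fold change -1.71 ± 0.10 SE, adjusted p = 2.04e-16), and its relative Crabp2 at 828 and 718 CPM against 1163 and 1296 CPM. Cyp26b1, which degrades retinoic acid, stood at 13.0 and 44.1 CPM against 4.79 and 10.7 CPM (log2 fold change 1.75 ± 0.23 SE, adjusted p = 2.04e-07). Other higher members included the receptors Rara and Rarb.

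Secreted signals and their readouts moved as follows. WNT genes were higher in 7 of 16 and lower in 2, led by the ligand Wnt7b at 49.3 and 27.2 CPM against 7.41 and 1.40 CPM (log2 fold change 3.35 ± 0.27 SE, adjusted p = 4.46e-13), with the nuclear effector Tcf7l2 at 70.7 and 108 CPM against 46.3 and 43.0 CPM. WNT counts were 2 higher and none lower without the NFI-expressing cells of replicate 2, 11 and 5 without those of replicate 1, 5 and 0 without the NFI-free cells of replicate 2, and 2 and 0 of 13 in thinned cells. FGF genes were higher in 5 of 12 and lower in 1, Fgf15 (3 and 1 without the NFI-expressing cells of replicate 2 or the NFI-free cells of replicate 1, and 3 and 0 of 10 in thinned cells). Fgfbp3, a carrier of secreted FGF, stood at 498 and 525 CPM against 175 and 103 CPM (log2 fold change 1.82 ± 0.12 SE, adjusted p = 5.63e-15). Etv1, a nuclear target of FGF signalling, stood at 8.37 and 28.2 CPM against 2.85 and 6.57 CPM. Of 12 Sonic hedgehog pathway genes, the receptor Ptch1 was higher (173 and 207 against 137 and 88.8 CPM), and the co-receptor Gas1 (14.9 and 62.9 against 42.5 and 141 CPM) and the repressor Gli3 were lower. No gene of this list was higher without either side of replicate 2 or in thinned cells. Of 13 ID and BMP genes, Id4 was higher (21.4 and 79.0 against 7.82 and 20.3 CPM) and 4 were lower, among them its relatives Id2 (45.6 and 63.5 against 69.0 and 111 CPM) and Id3 (261 and 463 against 294 and 810 CPM). The 4 became 1 without the NFI-expressing cells of replicate 2, 2 without the NFI-free cells of replicate 2 and 1 in thinned cells. ID proteins block bHLH factors, and within this family the members moved in opposite directions.

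Immediate early and low-oxygen genes also differed. Fos stood at 204 and 48.8 CPM against 99.8 and 21.1 CPM (log2 fold change 0.99 ± 0.13 SE, adjusted p = 2.67e-07), and Jund at 411 and 444 CPM against 276 and 219 CPM. Of 17 stress genes, 5 of the Fos, Jun and Egr1 kind were higher, and 4 were lower, among them the chaperone Hspa8 (1788 and 1570 against 2481 and 1871 CPM). These became 3 and 4 without the NFI-free cells of replicate 1, 5 and 2 without those of replicate 2, and 2 and 2 of 14 in thinned cells. Of 22 hypoxia and glycolysis genes, 7 were higher and none lower, for example Bnip3 at 172 and 90.1 CPM against 76.8 and 41.2 CPM. There were 13 higher without the NFI-expressing cells of replicate 2 and also with no scaling beyond the total count, whereas thinned cells gave 2 higher and 1 lower of 21. Egln3, an oxygen sensor, stood at 26.0 and 17.3 CPM against 7.05 and 3.21 CPM (log2 fold change 2.07 ± 0.27 SE, adjusted p = 1.32e-07). The part of these genes in the other groups was not tested.

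Other large differences at 20 CPM or more were mostly of genes outside the lists. Bcl11b, a zinc finger factor best known in cortical projection neurons and T cells, stood at 20.5 and 26.5 CPM against 1.63 and 1.77 CPM (log2 fold change 3.67 ± 0.31 SE, adjusted p = 2.30e-12). Ddc, the enzyme that makes dopamine and serotonin from their precursors, stood at 93.9 and 87.9 CPM against 25.9 and 18.4 CPM (log2 fold change 1.95 ± 0.16 SE, adjusted p = 9.59e-13). Lhfp (61.4 and 49.3 against 10.7 and 9.53 CPM), Scrn1 (39.99 and 44.8 against 7.77 and 8.03 CPM) and Kbtbd11 (39.99 and 39.3 against 11.6 and 6.88 CPM) had nearly equal levels in both libraries. Igfbp5, an insulin-like growth factor binding protein, stood at 23.2 and 88.2 CPM against 8.94 and 14.9 CPM. Moxd1, Spon1 and Gpm6b, the last of the radial glia list, differed mainly in replicate 2, and DESeq2 called none of them (adjusted p = 0.52, 0.51 and 0.25). For Moxd1 the levels were 27.9 against 17.3 CPM in replicate 1 and 128 against 18.9 CPM in replicate 2. Spon1, secreted by the floor plate, was 1 of 5 floor plate genes higher of 7 tested, none of which DESeq2 called. Without the NFI-expressing cells of replicate 2 none of the 7 was called, without the NFI-free cells of replicate 2 there were 2 higher, and thinned cells gave 1 of 5. The summed level of the floor plate list was 80.9 against 56.4 and 164 against 44.8 CPM. Of the genes that were lower, Prtg, an immunoglobulin-family receptor of the early neural tube, stood at 75.3 and 67.3 CPM against 161 and 170 CPM (log2 fold change -1.38 ± 0.13 SE, adjusted p = 2.44e-11). Emb (37.2 and 36.3 against 59.9 and 98.5 CPM) and the glutathione peroxidase Gpx3 (26.0 and 7.26 against 53.6 and 20.6 CPM) were lower as well.

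Cells just inside and just outside the threshold, with 2 and 1 NFI UMIs, are described without a test because the threshold chose them. Fabp7 stood at 336 CPM in replicate 1 and 513 CPM in replicate 2 with 2 NFI UMIs, at 145 and 91.9 CPM with 1, and at 43.2 and 39.5 CPM with none. Sox9 stood at 154 and 72.5 CPM with 2, at 66.1 and 29.0 CPM with 1, and at 28.3 and 14.1 CPM with none. Lin28a stood at 24.1 and 36.7 CPM with 2, at 34.1 and 47.8 CPM with 1, and at 65.5 and 62.0 CPM with none. Cells with 1 NFI UMI thus lay between the sides for these 3 genes in both libraries.

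Above the threshold the libraries parted. Replicate 2 had 95 cells with 4 or more NFI UMIs and replicate 1 had 7. In those of replicate 2, Fabp7 stood at 2162 CPM, against 495 CPM with 2 to 3 NFI UMIs, and Ptprz1 at 244 against 42.2 CPM. Hopx stood there at 53.8 against 2.26 CPM, Nkx2-2 at 28.03 against 5.09 CPM, and Lin28a at 6.67 against 32.5 CPM. The median depth of these cells was 22529 UMIs, against 27567 for 2 to 3 NFI UMIs. The 7 cells of replicate 1 had Fabp7 at 236 CPM, below the 397 CPM of cells with 2 to 3, and Lin28a at 82.6 CPM, above the 17.7 CPM of those cells. With 7 cells no order can be read there. In replicate 2, cells with Nfia but no Nfib UMI (16 cells) had Fabp7 at 1834 CPM, cells with Nfib but no Nfia UMI (88 cells) at 172 CPM, and cells with both (113 cells) at 2010 CPM. In replicate 1 these levels were 182, 288 and 555 CPM over 12, 21 and 25 cells, so the order of the single-gene cells turned between the libraries.

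**Figure D5:**
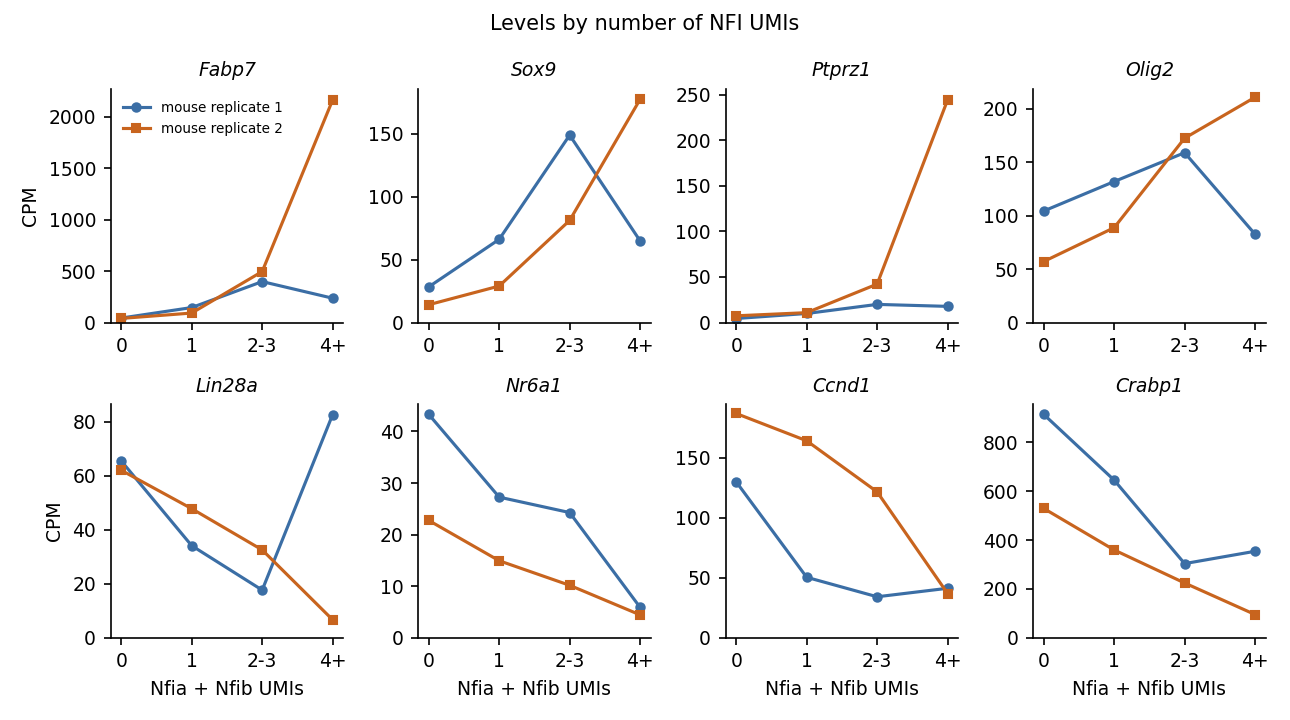
Level (vertical axes, CPM, each from 0) of 8 genes in progenitors with 0, 1, 2 to 3 and 4 or more Nfia plus Nfib UMIs (horizontal axes) for replicate 1 (blue circles) and replicate 2 (orange squares). In replicate 2 Fabp7, Sox9, Ptprz1 and Olig2 go up and Lin28a, Nr6a1, Ccnd1 and Crabp1 go down at each step, while the last point of replicate 1 rests on 7 cells.

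The same gate on human cells of the series gave fewer NFI-expressing progenitors: 1 of 1131 (0.0884%) in human replicate 1 and 36 of 716 (5.03%) in human replicate 2. In mouse the mean over libraries was 10.6% ± 8.10 (SD, n = 2) and in human 2.56% ± 3.49 (SD, n = 2). Mouse replicate 1 and human replicate 1 were parts of 1 mixed library, so the 4 parts are not independent. An exact two-sided permutation test that takes them as such gave p = 0.667 and cannot go below 0.333, so it gives no answer on the species. The mouse share was higher within the mixed library and also between the parts of replicate 2, while human replicate 2 lay slightly above mouse replicate 1. With at least 1 NFI UMI the shares were 17.5% and 31.3% in mouse against 2.56% and 15.4% in human, and with at least 1 UMI of Nfib 12.03% and 26.9% against 1.33% and 3.49%, without overlap. With at least 1 UMI of Nfia they were 7.54% and 12.9% against 1.33% and 12.4%, which overlapped. All of these shares are at full depth. With every cell thinned to 7000 UMIs before the gate, NFI-expressing shares were 1.21% and 7.74% in mouse against 0% and 1.21% in human. Human cells had been sampled every 48 h and mouse cells every 24 h, and the part of sampling time in these shares was not tested.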

How the data were processed

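The authors deposited UMI counts per gene and cell, raw counts that were not normalized, for 2 mouse parts with 38166382 and 83969715 UMIs. Cell Ranger 3.1.0 and mm10 are named per the submitters' processing notes; the annotation is not given in the sources used here, and the files held 27999 and 54087 gene entries. Cells needed 7000 UMIs, 500 genes and at most 10% mitochondrial UMIs, and the 60 barcodes shared with the human part of the mixed library were dropped. The mouse files shared 1 barcode. Scrublet marked 1 and 6 of the gated cells as doublets, which were kept in the main fit, since leaving them out was an alternative.

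Counts were summed per library and side over the 20661 symbols in both files, giving 4 sums. edgeR 4.0.16 (filterByExpr, TMM scaling, glmQLFit and glmQLFTest, Benjamini-Hochberg adjustment) was fitted with library and side as terms. With 1 residual degree of freedom, p-values lean on the spread shared across genes (prior degrees of freedom 42.1). Both sides of a library are cells of that library, which is what pairs them, and the library difference on both sides correlated at 0.75 across 11391 genes. Sox2, Stmn2, Col1a2, Nfia and Nfib chose the cells and were not tested. DESeq2 1.42.0 was an alternative. On data made with known changes, the fit recovered 77 of 100 genes changed 2-fold and 95 of 100 changed 4-fold in the NFI comparison (11173 genes), with 6 false calls among 10973 unchanged genes. Those data had 1 spread for all genes and the same change in both libraries, and the changed genes had at least 100 UMIs. The real libraries often differed in the size of a change, so these counts do not give the error rate of the real calls. CPM are counts scaled to a total of 1000000 per sum. Genes shown were the 15 higher and 15 lower with the largest change, at 20 CPM or more on the higher side and alike in direction in both libraries, the leading members of each list, and Hox genes. The members and lists were chosen with earlier results of these data known. A planned search of promoters for NFI motifs was not run, since no promoter sequence was used here. A few genes and 1 sequence within these lists are not reported here.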

Additional observations from a re-analysis of the deposited data

How the results depend on the processing

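The number of genes called (1341) stayed within 1.5 times under relative log expression scaling, no scaling, no filter, removal of doublets, a gate on thinned cells and restriction to cells with an Olig2 UMI (1028 to 1489). It was 321 with DESeq2 and 0 without the replicate block. It was 388 with gate and sums on cells thinned to 7000 UMIs, 310 in cells at or above the median depth, 777 with at least 1 and 506 with at least 4 NFI UMIs. A stricter progenitor gate gave 440, cells with no Olig2 and no Nkx2-2 UMI 165, and cells with no Mki67, Top2a or Cdk1 UMI 208. The thinned, deeper, at least 4 NFI UMIs, stricter and restricted settings used fewer cells. With at least 1 NFI UMI there were more NFI-expressing cells (206 and 415). DESeq2 and the fit without the block used the same cells as the main fit. Leaving out 1 sum at a time gave from 565 to 3161, with 659 without the NFI-free cells of replicate 2. The share of NFI-expressing progenitors (mean 10.6%) was 24.4% with at least 1 and 3.88% with at least 4 NFI UMIs, 4.48% with cells thinned before the gate and 6.14% with the stricter gate. Without the replicate block Nfib in Nfia-gated cells (log2 fold change 2.31) and Nfia in Nfib-gated cells (2.61) did not pass.

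For the 98 genes tested and named, 2113 values were recomputed. Of these, 1672 counted as unchanged, 337 no longer passed, 28 passed newly, 57 moved by more than the spread and 19 changed sign. Unchanged meant the same direction and side of the threshold. Values of 1 library alone have no p-value and were judged by the spread between the libraries. A change of sign there was counted only for genes called in the main fit. Those of Mki67 and Hes5 in replicate 1 and of Cdkn1c in replicate 2 are therefore not among the 19. In cells with no Mki67, Top2a or Cdk1 UMI (14 and 31 NFI-expressing cells) the log2 fold changes were -0.036 for Btg1, -0.21 for Cyp26b1, -0.62 for Elavl3, -0.93 for Elavl4, 0.55 for Hmga2, -0.58 for Hoxb5, 0.050 for Id2, 0.71 for Id3, -0.51 for Neurog2, -0.67 for Ube2c and 0.25 for Ung. Ube2c was at -0.022 in cells with no Olig2 and no Nkx2-2 UMI. With gate and sums on thinned cells Neurog2 was at -0.36 and Nusap1 at -0.14. Without the NFI-expressing cells of replicate 2, Hes5 was at -0.29 and Mki67 at -0.19. Without the NFI-free cells of replicate 2, Hes5 was at -0.13, Mki67 at -0.023 and Neurog2 at -0.21. The cause of each change was not tested.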
